A study of Homo sapiens with 4 samples.

Results

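Keratins are the intermediate filament proteins of epithelial cells. A type I keratin pairs with a type II keratin, and the pairs assemble into the filaments that give an epithelial sheet its strength. In the mammary gland the pair KRT5 and KRT14 and their relative KRT17 mark the basal or myoepithelial layer, the pair KRT8 and KRT18 and their partner KRT19 mark the luminal layer, and the hair keratins build the hair shaft. Chromatin accessibility at 55 keratin genes was examined here in the nontransformed human mammary epithelial cell line MCF10A and in the same line after transformation with the HRAS oncogene carrying the G12V change. The genes were all protein-coding genes with a symbol of KRT and a number on chromosomes 12 and 17, out of 20098 protein-coding genes in the annotation. The chromosome 17 cluster held 28 genes, all type I, and the chromosome 12 cluster 27 genes, all type II except KRT18. They were read as 4 basal keratins (KRT5, KRT14, KRT6A and KRT17), 3 simple keratins (KRT8, KRT18 and KRT19), 17 hair keratins, 8 keratins of the inner root sheath and 23 others.

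The data comprised 4 ATAC-seq libraries. In this assay the Tn5 transposase cuts and tags open DNA, so that clusters of insertions, called peaks, mark accessible loci. Replicates 1 and 2 of MCF10A were parental cells, and replicates 1 and 2 of G12V were cells that had received the HRAS oncogene by lentiviral transduction, together with a GFP vector to follow transduction, and been selected with hygromycin. Both groups grew in the same medium with epidermal growth factor, insulin, hydrocortisone, cholera toxin and horse serum, and the replicates are described as biological. No vector-only group is among the libraries analysed here, so the oncogene and the transduction with its selection cannot be told apart.

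One list of peaks per library was available, without reads, and the size of a list stood in for its depth. The lists held 12888 and 34463 peaks for MCF10A replicates 1 and 2, and 14042 and 46673 peaks for G12V replicates 1 and 2, on the autosomes and X. Replicate 2 had the longer list in both cell types and is called the deeper library on that basis, as read depth was not known. A locus without a peak is a locus that did not pass the caller's threshold, not a locus shown to be closed. The epithelial label was checked at promoters, taken as the 1000 bp before and the 500 bp after the transcription start site (TSS) of the canonical transcript. Of 8 epithelial markers other than keratins, 2 and 5 had a promoter peak in MCF10A replicates 1 and 2, and 0 and 3 in G12V replicates 1 and 2. LAMB3, a chain of laminin-332, had one in 3 of 4 libraries, whereas CDH1 and TP63 had none. Both endothelial markers found in the annotation had none, and of 5 immune markers CD14 alone had one, in 3 libraries. Of 4 luminal markers 0 and 2 had a promoter peak in MCF10A replicates 1 and 2, and 2 and 3 in G12V replicates 1 and 2. Of 7 mesenchymal markers the numbers were 0 and 4, and 1 and 3. The part of these differences in the keratin counts was not tested. None of the 7 basal and simple keratins had a promoter peak in more than 1 library, and 5 of them had none in any. Over all protein-coding genes, 22.2% and 44.5% had a promoter peak in MCF10A replicates 1 and 2, and 24.2% and 47.0% in G12V replicates 1 and 2. By themselves these marker counts did not identify the cells as epithelial, and that label is the study's description of the line.

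Few peaks lay at keratin genes in either cell type, and few of those recurred between libraries. Within a keratin gene, or within 20 kb of a keratin TSS (windows that overlap between neighbouring keratins and were counted once), there were 28 peaks in all, namely 4 and 9 in MCF10A replicates 1 and 2, and 3 and 12 in G12V replicates 1 and 2. Peaks of different libraries that overlapped were merged into 26 regions, against 60886 merged regions in the genome. A region was termed gained when both G12V replicates and no MCF10A replicate had a peak there, lost in the reverse case, and shared when all 4 had one. These classes are not the study's gained and lost loci, which were called by comparing pooled reads of the cell types. None of the 26 keratin regions was gained, lost or shared. Of all merged regions, 3.2% were gained, 2.14% were lost and 8.36% were shared. At such shares a set of 26 regions can easily hold no gained or lost one. Of the keratin regions, 24 (92.3%) came from a single library and 2 from the deeper library of both cell types, against 56.4% of all regions that came from a single library. No keratin had a gained region within reach, where 6.5% of all protein-coding genes had one, and none had a lost region, where 4.02% of genes had one. For a shared region the share of genes was 22.8%.

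**Figure D1:**
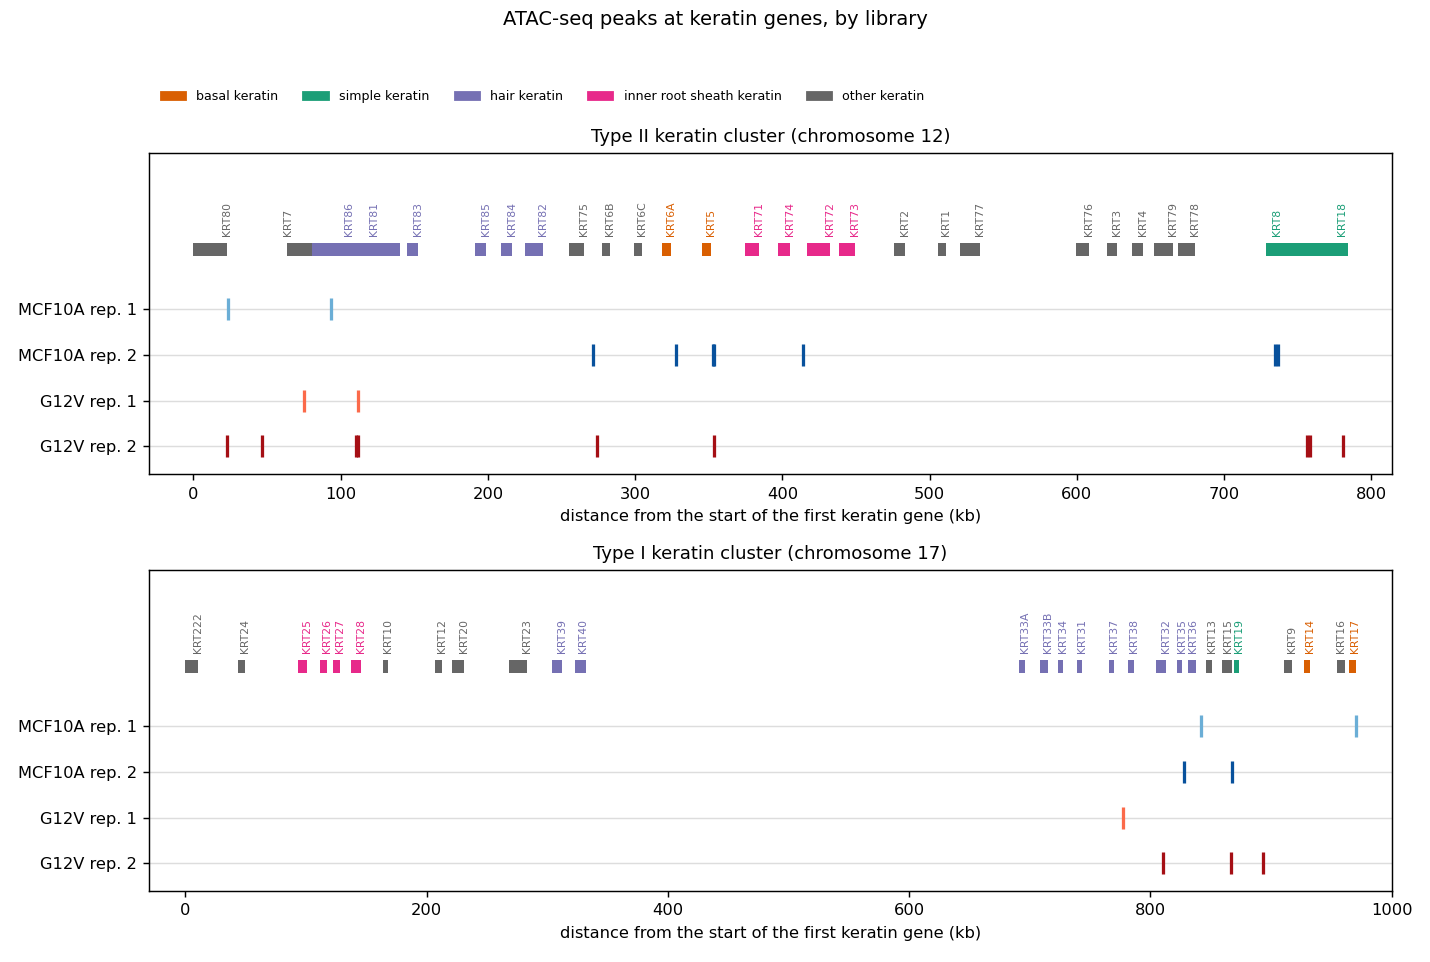
Maps of the type II cluster on chromosome 12 and the type I cluster on chromosome 17, with distance from the start of the first keratin gene in kb on the horizontal axis. Boxes are keratin genes coloured by role (the boxes of KRT86 and KRT81, and of KRT8 and KRT18, overlap), and each tick is a peak in the named library. The 28 peaks rarely stand above one another, and the left and middle parts of the type I cluster have no tick in any library.

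The basal keratins had 1 and 3 peaks in MCF10A replicates 1 and 2, and 0 and 1 in G12V replicates 1 and 2. KRT14, the type I keratin of the basal layer (ENSG00000186847, chromosome 17, 39738531 to 39743147, minus strand, hg19), had no peak in the gene or within 20 kb of its TSS in any library, and the nearest region was 37707 bp away. KRT17, a keratin induced in wounded and activated epithelium, had a promoter peak 27 bp upstream of its TSS in MCF10A replicate 1. That peak scored at percentile 20.0 of its list, and the other 3 libraries had none. KRT6A, another wound-induced keratin, had a peak 3265 bp upstream of its TSS in MCF10A replicate 2 at percentile 26.5, and in no other library.

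KRT5, the type II partner of KRT14 (ENSG00000186081, chromosome 12, minus strand), had no peak in its promoter and 2 regions just upstream of it. The nearer one, 1464 bp from the TSS, was called in MCF10A replicate 2 at percentile 44.8 and in no other library. The farther one, 2118 bp from the TSS, was called in replicate 2 of both cell types, at percentile 37.2 in MCF10A and 14.5 in G12V. It was thus the only accessible region near a basal keratin that was found in both cell types. In neither replicate 1 list was KRT5 within reach of a peak.

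The sequences of the KRT5 and KRT6A regions are shown because these were the only called loci upstream of the type II basal keratins. Each is a 300 bp window at the peak midpoint, plus strand of hg19, with matches to the motifs named further on in capitals.
KRT5 near region, chr12:52915713-52916012: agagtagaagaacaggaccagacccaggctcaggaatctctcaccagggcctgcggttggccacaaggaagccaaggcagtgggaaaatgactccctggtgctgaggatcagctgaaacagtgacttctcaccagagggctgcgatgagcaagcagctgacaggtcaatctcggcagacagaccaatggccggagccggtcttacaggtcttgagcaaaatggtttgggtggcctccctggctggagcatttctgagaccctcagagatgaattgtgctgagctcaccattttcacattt
KRT5 far region, chr12:52916457-52916756: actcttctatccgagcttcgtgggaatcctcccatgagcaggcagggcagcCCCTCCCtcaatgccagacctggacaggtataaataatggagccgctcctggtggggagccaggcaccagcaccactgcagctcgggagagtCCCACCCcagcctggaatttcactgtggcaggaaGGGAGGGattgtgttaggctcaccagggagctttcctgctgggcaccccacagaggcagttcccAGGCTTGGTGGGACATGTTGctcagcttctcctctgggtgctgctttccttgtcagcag
KRT6A upstream region, chr12:52890342-52890641: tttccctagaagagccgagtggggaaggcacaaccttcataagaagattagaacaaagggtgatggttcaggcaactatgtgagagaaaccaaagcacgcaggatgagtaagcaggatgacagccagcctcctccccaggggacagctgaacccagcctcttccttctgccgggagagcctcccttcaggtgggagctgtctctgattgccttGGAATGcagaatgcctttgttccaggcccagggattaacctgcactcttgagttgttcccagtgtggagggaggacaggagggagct
The far KRT5 window held 3 KLF/SP matches and a match to the p53 family consensus with 3 mismatches, at 52916698 to 52916717. The near KRT5 window held no match to any motif searched. The KRT6A window held a TEAD match.

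Simple keratins had 0 and 3 peaks in MCF10A replicates 1 and 2, and 0 and 5 in G12V replicates 1 and 2. All their peaks therefore lay in the deeper lists. KRT8, the type II keratin of simple epithelia (ENSG00000170421, chromosome 12, minus strand), had a peak over its TSS in MCF10A replicate 2 at percentile 29.9 and no promoter peak in the other libraries. A second peak in that library, 1201 bp downstream in the first intron of the canonical transcript, lay at percentile 0.25, next to the caller's threshold. In G12V replicate 2 the KRT8 peaks were elsewhere, 20244 and 22269 bp upstream of the TSS, within the long form of the gene that reaches back to KRT18, at percentiles 4.53 and 7.27. No KRT8 position was called in both cell types.

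KRT18, the type I partner of KRT8, lies beside it, although most type I keratins are on chromosome 17 (ENSG00000111057, chromosome 12, 53342655 to 53346690, plus strand). It had 1 peak, in G12V replicate 2, 704 bp downstream of the TSS in the first intron of its canonical transcript. The first intron of KRT18 is known for an enhancer with an AP-1 site. The peak scored 40.8, at percentile 1.57 of its list, and the other 3 libraries had none. The long form of KRT8 also reaches over this peak, which was therefore counted for both genes. KRT19, a type I keratin without a tail domain, had no promoter peak in any library (ENSG00000171345, chromosome 17, 39679869 to 39684560, minus strand). A region called in replicate 2 of both cell types lay 6160 bp downstream of the KRT19 TSS, inside the gene record of its neighbour KRT15, at percentile 1.74 in MCF10A and 59.1 in G12V. The latter was the only keratin peak above the median of its list. Another peak, in G12V replicate 2 alone, lay 19503 bp upstream of KRT19 at percentile 45.2.

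The KRT18 window is shown as the only called locus within that gene, and the KRT15 window as the strongest of the keratin peaks (the 142 bp of it outside annotated untranslated regions).
KRT18 intron, chr12:53343679-53343978: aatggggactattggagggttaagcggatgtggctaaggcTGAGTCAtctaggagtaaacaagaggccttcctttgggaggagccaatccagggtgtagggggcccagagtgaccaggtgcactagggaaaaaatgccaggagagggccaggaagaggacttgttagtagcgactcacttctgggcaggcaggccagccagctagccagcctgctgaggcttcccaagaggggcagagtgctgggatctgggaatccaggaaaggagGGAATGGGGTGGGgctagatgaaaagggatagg
KRT15 region near KRT19, chr17:39677795-39677936: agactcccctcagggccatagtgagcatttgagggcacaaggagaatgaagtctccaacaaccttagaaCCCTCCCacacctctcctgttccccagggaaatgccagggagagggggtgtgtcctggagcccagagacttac
The KRT18 window held an AP-1 match at 53343719 to 53343725 and adjoining TEAD and KLF/SP matches. The full KRT15 window held an AP-1 match, outside the stretch shown, and a KLF/SP match.

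**Figure D2:**
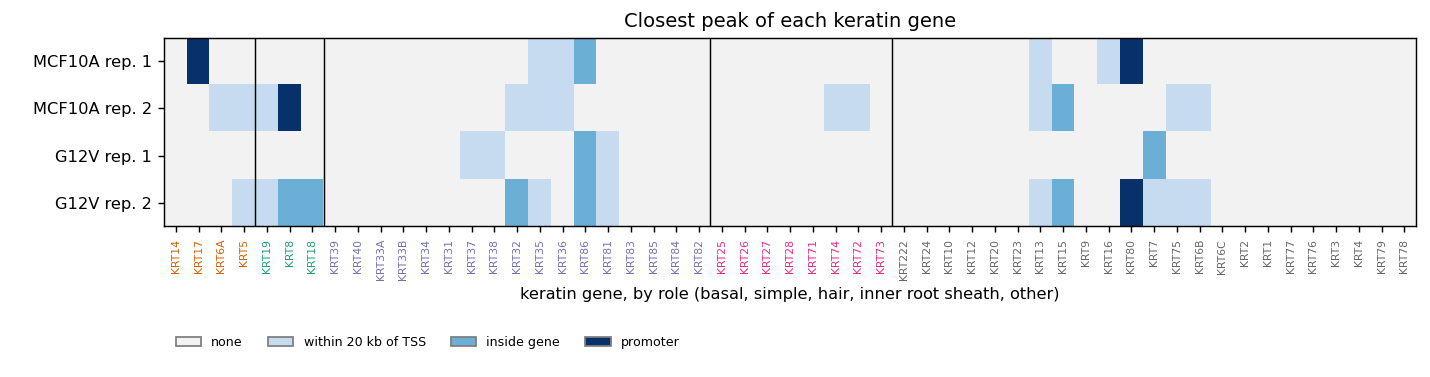
Closest peak of each of the 55 keratin genes (columns, grouped and coloured by role) in each library (rows), as none, within 20 kb of the TSS, inside the gene or in the promoter. The darkest cells, promoter peaks, occur for KRT17, KRT8 and KRT80 only, and 33 genes have an empty column.

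None of the 17 hair keratins had a promoter peak in any library, and 10 had no peak within reach. The group had 2 and 1 peaks in MCF10A replicates 1 and 2, and 2 and 3 in G12V replicates 1 and 2. Of the 8 peaks, 4 lay at KRT86 and its neighbour KRT81, closely related type II hair keratins, and 4 on chromosome 17. An MCF10A replicate 1 peak lay 12291 bp upstream of the canonical KRT86 TSS, in an intron of the longer gene record, at percentile 8.94. In G12V, replicate 1 had a peak 5579 bp downstream of the KRT86 TSS at percentile 8.7, and replicate 2 had peaks 4402 and 6061 bp downstream at percentiles 22.7 and 14.6, all in the same intron. The replicate 1 peak ended just before a replicate 2 peak without overlapping it, and merging peaks up to 200 bp apart turned the pair into 1 gained region. On chromosome 17, KRT37 and KRT38 were within reach of a G12V replicate 1 peak at percentile 41.4, and a G12V replicate 2 peak lay in an intron of KRT32 at percentile 25.2. The MCF10A peaks there lay upstream of KRT35 (replicate 2, percentile 11.2) and upstream of KRT36 (replicate 1, percentile 12.8).

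Of the 8 inner root sheath keratins, which stiffen the sheath around the growing hair, none had a promoter peak, and 2 (KRT74 and KRT72) were within reach of the same MCF10A replicate 2 peak at percentile 4.91. Of the 23 remaining keratins, 7 were within reach of a peak in at least 1 library. KRT80, a broadly expressed epithelial keratin, was the only keratin with peaks at its canonical promoter in more than 1 library, and these did not coincide. With every annotated TSS, KRT15 and KRT8 also had promoter peaks in 2 libraries, as KRT15 did with the start of its gene record. At KRT80 the MCF10A replicate 1 peak began 289 bp upstream of the canonical TSS at percentile 17.2, and the G12V replicate 2 peak covered part of the first exon at percentile 21.9. KRT7, a simple-type keratin of ducts, had a G12V replicate 2 peak 17298 bp upstream at percentile 22.4 and a G12V replicate 1 peak 10780 bp downstream, in an intron of the canonical transcript, at percentile 44.4. KRT75, a hair follicle keratin, and its neighbour KRT6B were both within reach of an MCF10A replicate 2 and a G12V replicate 2 peak at percentiles 36.5 and 14.8. KRT16, the partner of KRT6A, and KRT13, a keratin of internal stratified epithelia, were within reach only through the KRT17 peak and through the peaks at KRT36 and KRT15, respectively. KRT15 itself, a keratin of basal keratinocytes, had the region described with KRT19. The epidermal differentiation keratins KRT1, KRT2 and KRT10 had no peak within reach.

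As a set, 2, 1, 0 and 1 of the 55 keratins had a promoter peak in MCF10A replicates 1 and 2 and G12V replicates 1 and 2, against 22.2%, 44.5%, 24.2% and 47.0% of all protein-coding genes. No promoter peak in any library was found for 52 keratins (94.5%), against 46.9% of all genes. No keratin had a promoter peak in both MCF10A and no G12V library, a pattern of 0.512% of all genes, or the reverse, a pattern of 0.886%. A peak inside the gene or within 20 kb of the TSS was found for 7, 13, 5 and 14 keratins in the same order, against 40.4%, 70.1%, 42.6% and 74.5% of all genes. In at least 1 library, 22 keratins had such a peak and 33 (60.0%) had none, compared with 81.6% of all genes with one. With the start of the gene record as TSS the promoter counts were 2, 1, 0 and 3, and with every annotated TSS 2, 2, 1 and 4, so that the rise in the deeper G12V list depended on the TSS chosen. By gene rather than by region, KRT7 and KRT81 had a peak within reach in both G12V libraries and in no MCF10A library, and KRT36 in both MCF10A libraries and in no G12V library. Over all genes these patterns held for 1.46% and 0.911%, and at each of these keratins the peaks of the replicates were at different positions. The peaks within reach of KRT81 all lay in an intron of KRT86, which also had an MCF10A replicate 1 peak and so did not show the pattern.

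**Figure D3:**
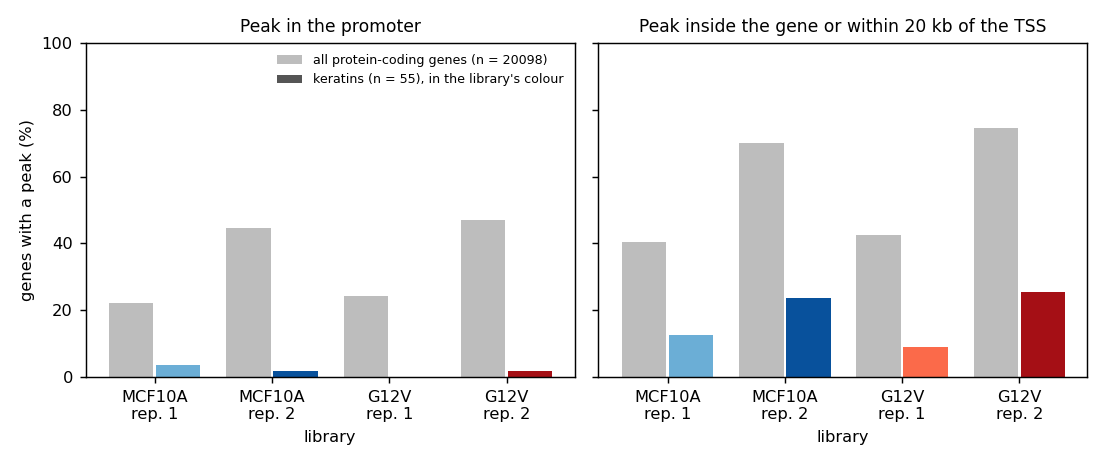
Share of genes with a peak in the promoter (left) and inside the gene or within 20 kb of the TSS (right), in percent, for each library. Grey bars are all 20098 protein-coding genes and coloured bars the 55 keratins, which reach at most 3.64% at promoters and 25.5% within reach.

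No difference between the cell types was detectable in basal, simple or hair keratin peaks or in keratin promoters, and the other groups were not tested. Basal keratins had 2.0 ± 1.41 peaks in MCF10A against 0.5 ± 0.707 in G12V (SD, n = 2 each, exact two-sided permutation test, p = 0.667, Benjamini-Hochberg adjusted p = 0.833 over 5 tests). Simple keratins had 1.5 ± 2.12 and 2.5 ± 3.54 peaks in the same order (SD, n = 2 each, exact permutation p = 1.0, adjusted p = 1.0). Hair keratins had 1.5 ± 0.707 and 2.5 ± 0.707 (SD, n = 2 each, exact permutation p = 0.667, adjusted p = 0.833). The number of keratin promoters with a peak was 1.5 ± 0.707 in MCF10A against 0.5 ± 0.707 in G12V (SD, n = 2 each, exact permutation p = 0.667, adjusted p = 0.833). With 2 libraries against 2 the smallest p is 0.333, so this design cannot reach 0.05.

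To allow for list size, keratin peaks were expressed as a share of their list. For MCF10A the share was 0.031% in replicate 1, with a 95% Wilson interval of 0.0121 to 0.0798%, and 0.0261% in replicate 2, with one of 0.0137 to 0.0496%. For G12V it was 0.0214% in replicate 1 (interval 0.00727 to 0.0628%) and 0.0257% in replicate 2 (interval 0.0147 to 0.0449%). Both G12V values were below both MCF10A values, but by less than these intervals, which cover counting error only. The mean difference was -0.00504 percentage points (n = 2 each, exact two-sided permutation test, p = 0.333, adjusted p = 0.833), and with the better-scoring 50% of each list, which left 1 keratin region, it turned to 0.00214. Within replicate numbers it was -0.00967 for replicate 1 and -0.000404 for replicate 2.

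Keratin peaks were also weak. The score of a peak is 10 times the negative log10 of its p-value, and its percentile is its rank in its own list. Median percentiles were 14.97 and 26.5 in MCF10A replicates 1 and 2, and 41.4 and 18.4 in G12V replicates 1 and 2. Of the 28 peaks, 27 were below the median of their list, and the highest score was 85.6.

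**Figure D4:**
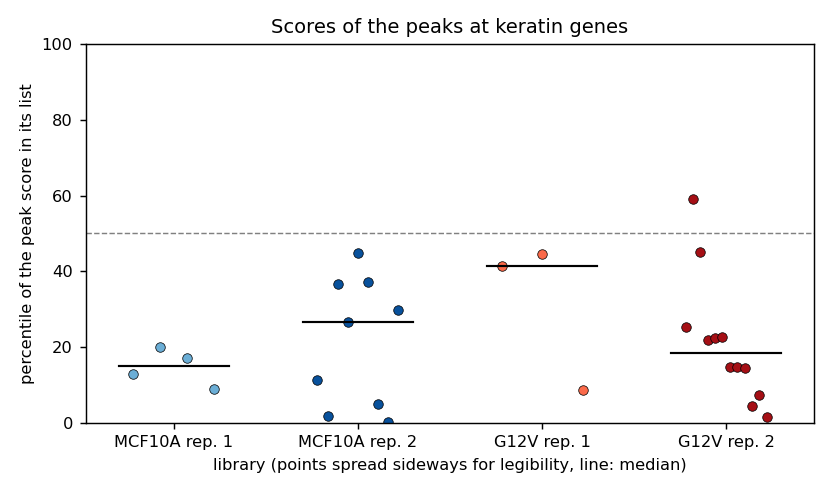
Percentile of each of the 28 keratin peaks among all peak scores of its library (points), with the library's median (black line) and the middle of the list (dashed line). Only the G12V replicate 2 peak at KRT15, at percentile 59.1, lies above the dashed line.

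Between the regions lay stretches in which no library had a peak, of unequal length. From 38716896 to 39588264 on chromosome 17 (871 kb) the stretch covered 54 protein-coding TSSs. These were 17 keratins, among them KRT10, KRT20 and KRT23, 34 keratin-associated protein genes, which encode the matrix of the hair shaft, and 3 other genes, CCR7, SMARCE1 and ENSG00000264058. Of 60863 intervals between neighbouring regions in the genome, 53 (0.0871%) were as long. On chromosome 12 the longest such stretch, 52977295 to 53267896 (291 kb), covered 10 keratins from KRT72 to KRT78, including KRT1 and KRT2, and 1.37% of the intervals were as long. A stretch of 159 kb with 6 keratin TSSs was matched by 5.29% of intervals. KRT9, KRT14, KRT16 and KRT17 started within a stretch of 76.2 kb, a length that 17.2% of intervals reached. That stretch ended at the KRT17 promoter peak, 27 bp upstream of the KRT17 TSS. The median distance from a keratin TSS to the nearest region of any kind was 34405 bp, compared with 123 bp over all genes. The distance to the nearest shared region ranged from 140176 bp at KRT80 to 2560251 bp at KRT222.

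The surroundings of the clusters were measured as well. The type II cluster had 2, 8, 2 and 9 peaks in MCF10A replicates 1 and 2 and G12V replicates 1 and 2, and the type I cluster 2, 2, 1 and 3. Per Mb these were 2.55, 10.2, 2.55 and 11.5 peaks in the type II cluster and 2.06, 2.06, 1.03 and 3.09 in the type I cluster, against 4.24, 11.4, 4.62 and 15.4 over the genome. In every library the type II cluster was thus nearer to the genome's density than the type I cluster, although in MCF10A replicate 1 each cluster held 2 peaks. A flank of the same length on either side of the type I cluster held 15 and 17 regions, where the cluster held 7, and none of these was gained, lost or shared. The flanks of the type II cluster held 10 and 26 regions, where the cluster held 20, and 1 and 2 of the flanking regions were shared. Genes within 2 Mb of each cluster were counted, leaving out keratins and keratin-associated protein genes. Of 119 such genes around the type I cluster, 22.7% had a promoter peak in at least 1 library. Of 82 around the type II cluster 47.6% did, against 53.1% of all protein-coding genes. The 34 keratin-associated protein genes on chromosomes 12 and 17, left out here, had no promoter peak in any library. The part that this location plays in the keratin counts was not tested.

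Keratin promoters shared a low content of CpG dinucleotides. The ratio of observed to expected CpG had a median of 0.253 over the 55 keratin promoters and 0.669 over all protein-coding promoters. With a ratio under 0.5, 13.5% of all promoters had a peak in at least 1 library, and with 0.5 or more 70.6% did. Among keratins, 3 of 50 (6.0%) had one in the first class and 0 of 5 in the second, which comprised KRT7, KRT18, KRT19, KRT72 and KRT81. Of the neighbouring genes counted above with a ratio under 0.5, 0 of 30 around the type I cluster had one. Around the type II cluster 8 of 30 (26.7%) did. With 0.5 or more the shares were 30.3% around the type I cluster and 59.6% around the type II cluster. Low CpG content thus went with few promoter peaks over the genome. The keratin counts here use the canonical TSS. With every annotated TSS, KRT7 and KRT18 of the second class and KRT15 of the first also had a promoter peak in at least 1 library. The part of CpG content in the keratin counts was not tested.

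**Figure D5:**
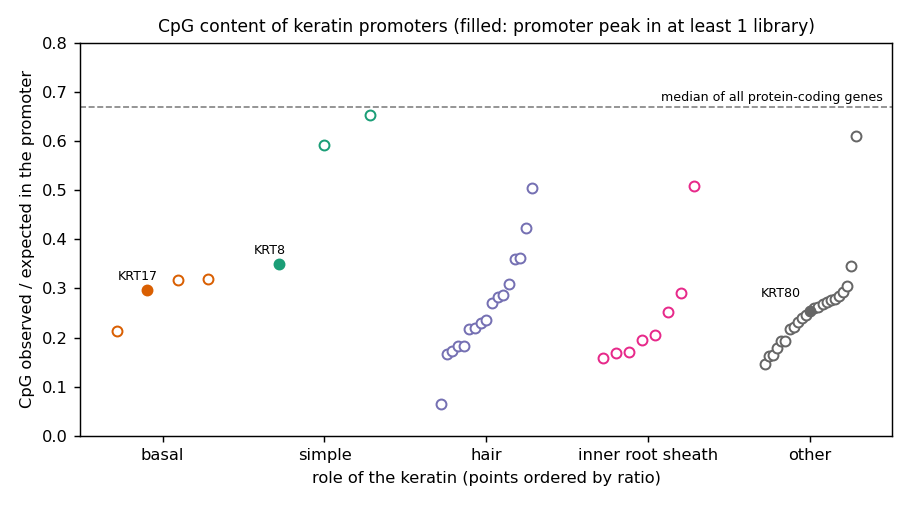
Ratio of observed to expected CpG dinucleotides in the promoter of each keratin (points), by role, with the median of all protein-coding promoters at 0.669 (dashed line). Filled points have a promoter peak in at least 1 library, and all keratins lie below the dashed line.

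Because only uniquely placed reads were kept, near-identical keratin copies can lose signal. The share of 51-base words in a promoter that occur once in the genome was 100% for 33 of 55 keratins and lowest for KRT6C (70.4%), KRT6B (73.4%) and KRT6A (73.9%), the copies of keratin 6. It was 79.8% for KRT17, 82.0% for KRT16 and 83.4% for KRT14, which have close copies on chromosome 17, and 83.0% for KRT8, 88.8% for KRT18 and 90.7% for KRT19. Words that differ from another place by a single base counted as unique here, so the share open to uniquely placed reads may be lower. The part of read placement in the keratin counts was not tested.

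Motifs were counted in the 300 bp windows of the 26 keratin regions, as exact matches on either strand unless stated. An AP-1 match (TGAGTCA), for the FOS and JUN factors, was found in 6 windows (23.1%) against 27.5% of the windows of all regions. For TEAD (GGAATG) the counts were 10 windows (38.5%) and 20.1%, for AP-2 (GCCNNNGGC), a factor of epidermal keratin promoters, 7 (26.9%) and 14.9%, and for KLF/SP (GGGNGGG) 12 (46.2%) and 30.4%. A CTCF match with up to 1 mismatch was found in 3 windows (11.5%, against 12.2%), and a p53 family match with up to 3 mismatches in 1 (3.85%, against 2.57%). The grainyhead letters AACCGGTT were in none of the 26 windows and in 0.087% of all. The keratin windows had a median GC content of 55.2%, compared with 47.7% over all regions, and the part of GC content in these counts was not tested.

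Other filament genes were read in the same way, at promoters. Of 15 intermediate filament genes that are not keratins, 5 had a promoter peak in at least 1 library, namely LMNB1 in all 4, VIM in 3 (MCF10A replicate 2 and both G12V libraries), LMNA in replicate 2 of both cell types, and SYNM and BFSP1 in MCF10A replicate 2. LMNB1 and LMNA encode lamins of the nuclear envelope, and VIM encodes vimentin, the filament protein of mesenchymal cells. Of 8 genes whose products anchor keratin filaments, 6 had a promoter peak, among them JUP, for plakoglobin, in 3 libraries, and DSP, for desmoplakin, in replicate 2 of both cell types. None of the 34 keratin-associated protein genes on chromosomes 12 and 17 had one in any library. A promoter peak in at least 1 library was found for 53.1% of all protein-coding genes. None of the 3 lists had a gene with a promoter peak in both G12V and no MCF10A library, which 0.886% of all protein-coding genes had.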

How the data were processed

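ATAC-seq peaks were analysed in 2 replicates each of MCF10A and G12V cells. The deposited lists gave hg19 positions and the authors' MACS score of each peak (10 times the negative log10 of the p-value). Per the study's methods, the authors aligned reads with bowtie, kept uniquely placed reads, shifted each read start to where the transposase had bound, and ran MACS on the result (tag size 51, shift size 75, local window 25000, p threshold 1e-04). Because a score grows with depth, peaks were described by its rank within a list, and the few raw scores given were not compared between libraries. The rank also depends on the length of the list, so percentiles of different libraries are not on a common scale.

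Of all peaks, 0 ended past a GRCh37 chromosome end. Genes were those of GENCODE release 44, lifted to GRCh37, with the canonical transcript start as TSS. Peaks overlapping by at least 1 bp were merged. Counts per library were compared by exact permutation tests with Benjamini-Hochberg adjustment. Keratins and lists were chosen with earlier results of these data known. CpG, neighbour and peak-free stretch measures were added after the peaks had been seen, as was the choice of the regions described singly beyond the named genes. The genes to be named were the 7 basal and simple keratins and any keratin with a promoter peak in at least 2 libraries or a gained, lost or shared region within reach. Alternatives covered list depth, window, TSS set, merging and leaving out each library. Simulated peaks and planted motifs were used to test the merging, the classes and the search. Python 3.11.15, numpy 2.4.6, pandas 2.3.3, scipy 1.17.1, statsmodels 0.14.6, pysam 0.24.0 and matplotlib 3.10.9 were used. The sequences of some regions are not reported here.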

Additional observations from a re-analysis of the deposited data

How the results depend on the processing

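With 0 gained, lost or shared keratin regions, settings that asked fewer libraries to match raised the counts by construction. With each library left out in turn, there were 0 to 10 gained regions (10 of 23 without G12V replicate 1, where 39.0% of all regions were gained, and 3 of 16 without G12V replicate 2, where 9.86% were) and 0 to 7 lost regions (7 of 22 without MCF10A replicate 1, where 18.5% of all regions were lost, and 4 of 19 without MCF10A replicate 2, where 6.03% were). In the replicate 1 pair by itself 3 of 7 regions were gained and 4 lost (all regions 40.3% and 34.7%), and in the replicate 2 pair 10 of 19 were gained, 7 lost and 2 shared (all regions 41.7%, 19.6% and 38.6%). A peak in either library of 1 cell type gave 13 gained and 11 lost of 26 regions (all regions 40.9% and 20.8%), and merging within 200 bp gave 1 gained of 25 (all regions 3.27%). Without a library the difference in keratin share ranged from -0.0075 to -0.00258 percentage points. With the better-scoring 50% of each list, which held 1 keratin region, the difference (G12V minus MCF10A) in keratin share turned to 0.00214 percentage points, and those in basal and hair peaks and in promoters were 0. At equal list sizes (12888 peaks) the differences in simple and hair peaks were 0. Without a library, the difference in simple keratin peaks ranged from -1.5 to 3.5, and it turned to -0.5 without MCF10A replicate 1 and to -1.5 without G12V replicate 2. With 50 kb around the TSS it was -0.5. The promoter difference was 0 with the gene record start as TSS and 0.5 with every annotated TSS, where KRT15, KRT18 and KRT7 also counted as having a promoter peak. In the replicate 1 pair alone the differences in simple and hair peaks were 0, and in the replicate 2 pair alone that in promoters was 0. With whole regions in place of windows, TEAD matches were found in 16 of 26 keratin regions and in 34.8% of all regions. The cause of these shifts was not tested.

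The replicate block gave the same differences, among them -0.00504 percentage points for the keratin share with an exact sign-flip permutation p of 0.5, the smallest that 2 pairs allow. Deviations of same-numbered libraries correlated at 0.143 over all regions. The labels give no shared origin for a number, so the pairing was not taken as established. The depth of the lists limits all comparisons.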
